A study of Mus musculus with 6 samples.

Results

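Disease-associated microglia are a state of the brain's resident macrophages first defined by a set of genes that are turned up together around amyloid plaques, dying neurons and damaged myelin. The 10 genes described here, Ctsz, Cd9, Lyz2, Lpl, Apoe, Tyrobp, Trem2, Ctsb, Ctsd and Cd68, are well-known members of that set and were chosen by name, out of 21878 genes in the table. All 10 passed the filter on low counts, which left 14440 genes for testing. In this state, the lipid receptor Trem2 signals through its adaptor Tyrobp and is needed for full activation. Activated cells take up lipid and debris and break it down in lysosomes, where cathepsins cut proteins and lysozyme cuts bacterial wall sugars. Several of these genes are also used by other brain cells: Apoe is made mainly by astrocytes, and Cd9, Ctsb and Ctsd are expressed in many cell types.

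RNA was sequenced in bulk from whole prefrontal cortex of 6 mice, with no sorting of cells. The 3 Gls1_CamkIIaCre mice were heterozygous for a floxed Gls1 allele and carried a CamKIIα-Cre transgene (CamKIIαCre;Gls1+/flox), which is active in excitatory forebrain neurons. The 3 controls were littermates with the same transgene and no floxed allele (CamKIIαCre;Gls1+/+, labelled WT), so both groups carried Cre. The mutants were mosaic, since Cre acts in part of the cells, and homozygous floxed mice were not viable, per the series description. The age and sex of the mice are not in the labels. Microglia themselves are not a target of this Cre driver. Fewer cells of a type and less RNA per cell cannot be told apart in bulk tissue. Nor does bulk tissue show which cells the RNA of a member, Lpl included, came from.

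Library totals lay between 17987807 and 19330961 counts. The cortical label matched the excitatory cortical genes Slc17a7 (1371, 1447 and 1482 CPM, counts scaled to library size, in Gls1_CamkIIaCre libraries 1 to 3, against 1370, 1359 and 1630 CPM in control libraries 1 to 3) and Tbr1, which were present in every library. Markers of the neighbouring striatum differed between the groups: 16 of 19 were lower in Gls1_CamkIIaCre, with a mean relative level (each gene's CPM divided by its mean over the 6 libraries) of 0.443, 0.452 and 0.495 in Gls1_CamkIIaCre, against 1.17, 2.06 and 1.38 in controls. Of 20 interferon-induced genes, 14 were lower, with mean relative levels of 0.715, 0.645 and 0.638 in Gls1_CamkIIaCre, against 1.71, 1.08 and 1.22 in controls, where control 1 was highest. The part of the interferon shift in the levels of the 10 genes was not tested, and a covariate for the striatum level is described with the genes that passed.

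Per gene length, Apoe was the most abundant of the 10 genes, at 657 FPKM on average over the 6 libraries (fragments scaled for gene length and sequencing depth). It was followed by the lysosomal proteases Ctsd at 121 FPKM and Ctsb at 88.5 FPKM, then Cd9 at 27.1, Tyrobp at 20.8, Ctsz at 17.9, Lyz2 at 8.42, Trem2 at 5.43, Cd68 at 4.26 and Lpl at 2.67 FPKM. The ranges over libraries overlapped for the neighbours Tyrobp and Ctsz, Trem2 and Cd68, and Cd68 and Lpl, and did not overlap for the other neighbours in this order. Ctsd, Ctsb, Tyrobp and Apoe varied least within a group, with coefficients of variation in CPM of 2.02%, 2.60%, 3.06% and 3.28% in that order, whereas Lyz2 varied by 14.8% and Lpl by 17.0%. The smallest count behind any value was 115 reads, for Cd68 in Gls1_CamkIIaCre 3.

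Of the 10 genes, 4 were lower in Gls1_CamkIIaCre prefrontal cortex and 0 were higher (edgeR's quasi-likelihood test, Benjamini-Hochberg adjusted p under 0.05 over all 14440 genes). The 4 were the cathepsin gene Ctsz, the tetraspanin gene Cd9, the lysozyme gene Lyz2 and the lipoprotein lipase gene Lpl. Among all genes tested, 8.24% were called in either direction and 4.29% were called lower. At an unadjusted p under 0.05, 6 members were lower and 0 higher, and no member was called higher by DESeq2 or limma voom. The 2 shares above do not apply to this looser threshold, at which all genes were not counted. Many genes reach it: Ctsd, with an unadjusted edgeR p of 0.0303, ranked 2628 by p among the 14440. The fitted log2 fold change was below 0 for 10 of 10 members, with a median of -0.24, against a median of -0.0024 and 50.8% below 0 over all genes tested. For 8 of 10 members every Gls1_CamkIIaCre library lay under every control library, a pattern that 13.6% of all genes tested showed. In CPM, Apoe and Ctsb were the members whose groups overlapped. In the deposited FPKM values, Lyz2 and Ctsb were the members whose groups overlapped, and those of Apoe did not. How many of all genes separated on FPKM was not counted, and the 13.6% holds for CPM only. The FPKM values leaned lower over all genes, with 116 called higher and 558 lower by limma on log2(FPKM + 1).

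**Figure D1:**
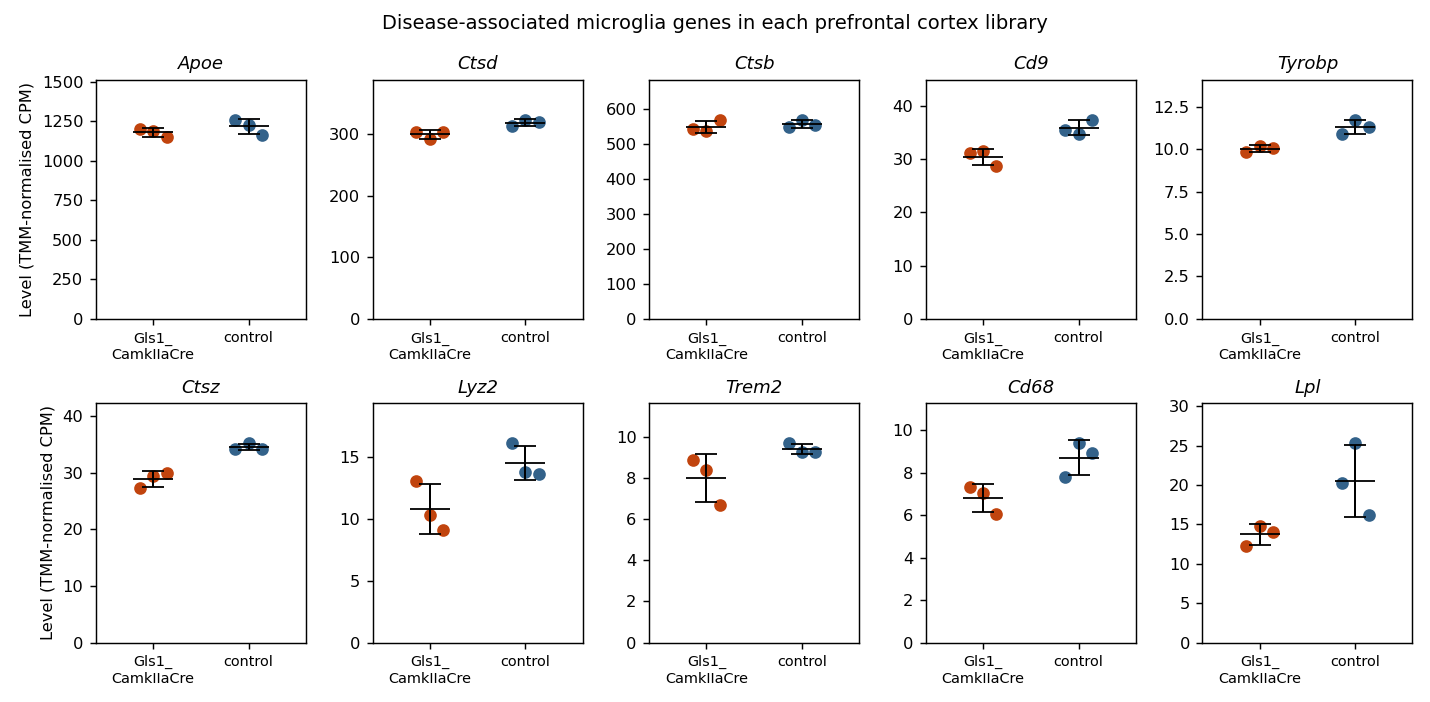
Level of each of the 10 genes in TMM-normalised CPM (linear axis from 0) in the 3 Gls1_CamkIIaCre libraries (orange, left) and the 3 control libraries (blue, right). Long lines are group means and error bars are SD (n = 3 each). On this scale the groups separate for every gene but Apoe and Ctsb.

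Lpl encodes lipoprotein lipase, which frees fatty acids from lipoprotein particles and is a hallmark of lipid-handling microglia (chromosome 8, 68880555 to 68906932, plus strand). It was at 12.3, 14.8 and 14.1 CPM in Gls1_CamkIIaCre libraries 1, 2 and 3, against 20.2, 25.3 and 16.2 CPM in control libraries 1, 2 and 3. The groups did not overlap, but control 3 lay close to the mutant libraries and control 2 well above the rest. Lpl had the most negative fold change of the 10 genes, with a log2 value of -0.58 ± 0.15 (SE, n = 3 each), a 95% interval of -0.92 to -0.25 and an edgeR adjusted p of 0.0405. Without control 3 the edgeR adjusted p was 0.000451, and leaving out any other single library ended the call, with edgeR adjusted p between 0.0507 and 0.132.

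Lyz2 encodes the lysozyme of macrophages and is used as a marker of myeloid cells (chromosome 10, 117277541 to 117282272, minus strand). It was at 13.01, 10.3 and 9.07 CPM in Gls1_CamkIIaCre libraries, against 16.1, 13.8 and 13.6 CPM in controls. The groups did not overlap in CPM, though Gls1_CamkIIaCre 1 came close to control 3. In the deposited FPKM values they did overlap, with Gls1_CamkIIaCre 1 at 8.34 FPKM, against 8.17 FPKM in control 3. The log2 fold change was -0.43 ± 0.12 (SE, n = 3 each), with a 95% interval of -0.68 to -0.17 and an edgeR adjusted p of 0.0345. The call held without Gls1_CamkIIaCre 1 (edgeR adjusted p of 0.0111) or control 3 (0.0382). It was lost without Gls1_CamkIIaCre 2 (0.150), Gls1_CamkIIaCre 3 (0.139), control 1 (0.150) or control 2 (0.0700). The near-identical neighbouring copy Lyz1 had 0 counts in every Gls1_CamkIIaCre library, against 1, 1 and 0 counts in controls, and how reads shared by the pair were counted is not given in the sources used here.

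Ctsz encodes cathepsin Z, a lysosomal carboxypeptidase (chromosome 2, 174427494 to 174439039, minus strand). It was at 27.3, 29.4 and 30.0 CPM in Gls1_CamkIIaCre libraries, against 34.2, 35.2 and 34.2 CPM in controls. The controls lay close together and above every mutant library. The log2 fold change was -0.26 ± 0.06 (SE, n = 3 each), with a 95% interval of -0.39 to -0.12 and an edgeR adjusted p of 0.0161, the smallest among the 10 genes. The call was lost without Gls1_CamkIIaCre 1 (edgeR adjusted p of 0.0808), Gls1_CamkIIaCre 2 (0.0558) or control 2 (0.0677), and held without each of the others. Ctsz shares 10 exonic bases, 0.694% of its exons, with Nelfcd on the opposite strand, and Nelfcd had a log2 fold change of -0.02 (edgeR adjusted p of 0.904).

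Cd9 encodes a tetraspanin, a membrane protein that gathers partner proteins into patches at the cell surface (chromosome 6, 125460266 to 125494760, minus strand). It was at 31.2, 31.5 and 28.8 CPM in Gls1_CamkIIaCre libraries, against 35.5, 34.7 and 37.5 CPM in controls. The groups did not overlap, with Gls1_CamkIIaCre 3 lowest and control 3 highest. The log2 fold change was -0.24 ± 0.06 (SE, n = 3 each), with a 95% interval of -0.37 to -0.10 and an edgeR adjusted p of 0.0275. Leaving out any single library ended the call, although the edgeR adjusted p stayed between 0.0502 (without control 2) and 0.103 (without Gls1_CamkIIaCre 3). Cd9 shares 10.7% of its exonic bases with the antisense transcript Gm26728, and strand use in the counting is not given in the sources used here.

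None of the 4 calls held when the striatum level of each library was added as a covariate. The number of members called was then 0, against 43 of all genes. The covariate fit gave log2 fold changes of -0.03 for Lpl, -0.20 for Ctsz, -0.32 for Cd9 and -0.65 for Lyz2, with edgeR adjusted p between 0.513 and 0.987. The striatum level and genotype were correlated at r = -0.89 over the 6 libraries, as a description, so the 2 can hardly be told apart in this fit.

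**Figure D2:**
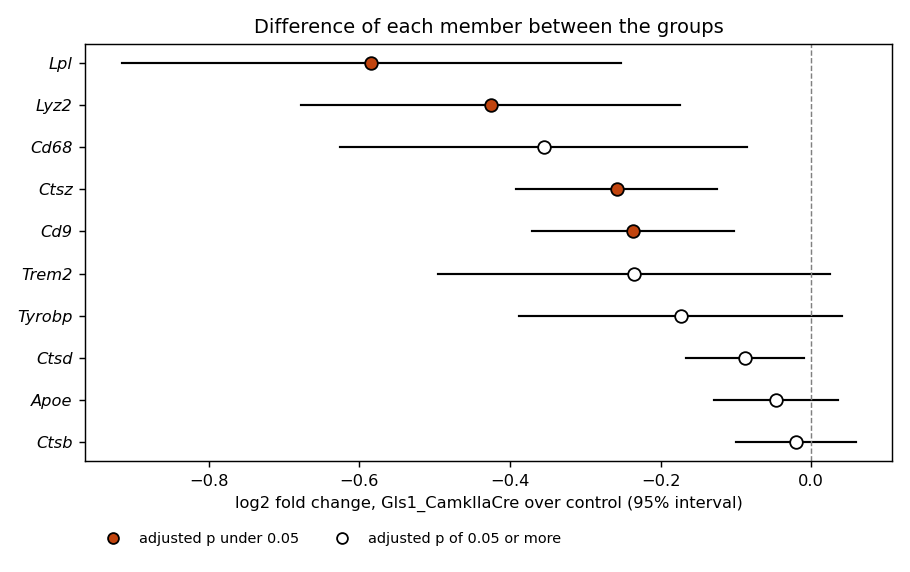
Fitted log2 fold change of Gls1_CamkIIaCre over control for each of the 10 genes (points) with its 95% interval (lines), ordered by size. Filled points have an edgeR adjusted p under 0.05, and values run from -0.58 for Lpl to -0.02 for Ctsb.

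The promoters of Ctsz, Cd9 and Lyz2 are shown because these genes were lower together, and that of Ctsd because it was the only member with the searched E-box. RefSeq promoter windows (GRCm38.p6, 250 bases before to 50 bases after the start) were found for 7 of the 10 genes, and Lpl, Tyrobp and Ctsb had none in the table. Capitals mark CACGTG, the E-box core recognised by factors that include Tfeb, a regulator of lysosomal genes. The windows are chr2:174438990-174439289 (minus strand) for Ctsz, chr6:125494711-125495010 (minus strand) for Cd9, chr10:117282223-117282522 (minus strand) for Lyz2 and chr7:142387778-142388077 (minus strand) for Ctsd, each written 5′ to 3′.
Ctsz: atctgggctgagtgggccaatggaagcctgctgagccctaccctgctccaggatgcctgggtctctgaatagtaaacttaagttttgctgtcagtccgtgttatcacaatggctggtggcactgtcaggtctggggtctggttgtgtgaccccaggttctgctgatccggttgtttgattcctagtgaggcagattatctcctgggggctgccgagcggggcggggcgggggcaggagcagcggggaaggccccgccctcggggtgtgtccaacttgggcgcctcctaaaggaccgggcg
Cd9: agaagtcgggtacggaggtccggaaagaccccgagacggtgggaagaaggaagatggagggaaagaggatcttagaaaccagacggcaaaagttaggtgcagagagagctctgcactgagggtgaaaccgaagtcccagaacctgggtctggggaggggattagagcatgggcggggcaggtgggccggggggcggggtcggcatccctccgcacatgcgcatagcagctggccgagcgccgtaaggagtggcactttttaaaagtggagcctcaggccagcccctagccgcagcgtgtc
Lyz2: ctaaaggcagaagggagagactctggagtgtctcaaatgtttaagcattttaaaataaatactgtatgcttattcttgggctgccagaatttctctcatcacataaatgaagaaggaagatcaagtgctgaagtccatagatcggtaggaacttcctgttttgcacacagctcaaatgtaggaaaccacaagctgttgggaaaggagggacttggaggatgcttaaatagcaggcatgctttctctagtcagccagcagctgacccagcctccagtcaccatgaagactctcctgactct
Ctsd: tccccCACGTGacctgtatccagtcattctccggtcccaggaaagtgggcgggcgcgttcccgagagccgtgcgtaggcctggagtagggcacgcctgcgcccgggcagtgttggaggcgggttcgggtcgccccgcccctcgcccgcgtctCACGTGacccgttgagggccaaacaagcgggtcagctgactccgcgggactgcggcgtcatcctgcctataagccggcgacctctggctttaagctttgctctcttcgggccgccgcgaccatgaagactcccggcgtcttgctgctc
Both strands were searched, and CACGTG reads the same on each. It occurred at -245 and -98 from the start of Ctsd and in no other member's window, and 7.15% of all 32851 windows held it. The letters GAGGAA, the core of sites for the myeloid factor Spi1 (PU.1), were searched on both strands too. They occurred for 3 of the 7 genes, Apoe, Trem2 and Cd68, and not for Ctsz, Cd9 or Lyz2, while 28.3% of all windows held them. This share is per window, whereas the count is per gene, and Apoe had 3 windows. No member's window held both motifs, so they did not overlap.

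Among the receptor genes, Trem2 encodes the lipid-sensing receptor itself (chromosome 17, 48346401 to 48352276, plus strand). It was at 8.89, 8.41 and 6.70 CPM in Gls1_CamkIIaCre libraries, against 9.70, 9.28 and 9.26 CPM in controls. The groups did not overlap, and Gls1_CamkIIaCre 3 lay well under the others. The log2 fold change was -0.24 ± 0.13 (SE, n = 3 each), close to that of Cd9 but with a wider 95% interval of -0.50 to 0.03, and it did not pass the test (edgeR adjusted p of 0.281). Without Gls1_CamkIIaCre 3 the log2 fold change was -0.12 (edgeR adjusted p of 0.649). Tyrobp, which encodes the adaptor that carries the Trem2 signal (chromosome 7, 30413782 to 30417582, plus strand), was at 9.80, 10.2 and 10.1 CPM in Gls1_CamkIIaCre libraries, against 10.9, 11.7 and 11.3 CPM in controls. These groups were tight and did not overlap, with a log2 fold change of -0.17 ± 0.10 (SE, n = 3 each) and an edgeR adjusted p of 0.342. On the FPKM table, limma called Tyrobp lower, with an adjusted p of 0.0328 at a pseudocount of 1. Tyrobp passed in 2 of 19 alternative settings, those on FPKM. On counts its adjusted p was 0.328 by limma voom and 0.639 by DESeq2.

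Cd68 encodes a lysosomal membrane glycoprotein that marks phagocytic macrophages (chromosome 11, 69664213 to 69666170, minus strand). It was at 7.34, 7.02 and 6.06 CPM in Gls1_CamkIIaCre libraries, against 7.81, 9.38 and 8.93 CPM in controls. The groups did not overlap, with control 1 near the mutant libraries. Its log2 fold change of -0.35 ± 0.13 (SE, n = 3 each) was the third in size, and its edgeR adjusted p of 0.0982 missed the threshold. Ctsd, which encodes the aspartic protease cathepsin D (chromosome 7, 142375910 to 142387827, minus strand), was at 304, 292 and 304 CPM in Gls1_CamkIIaCre libraries, against 313, 324 and 320 CPM in controls. The groups did not overlap, but the log2 fold change was small, at -0.09 ± 0.04 (SE, n = 3 each), with an edgeR adjusted p of 0.166. Of the exonic bases of Ctsd, 34.4% lie in Gm49369 on the same strand, so its counts are uncertain.

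Apoe encodes apolipoprotein E, the main lipid carrier of the brain (chromosome 7, 19696244 to 19701310, minus strand). It was at 1203, 1187 and 1147 CPM in Gls1_CamkIIaCre libraries, against 1260, 1229 and 1166 CPM in controls. The groups overlapped in CPM, and the log2 fold change was -0.05 ± 0.04 (SE, n = 3 each), with a 95% interval of -0.13 to 0.04 and an edgeR adjusted p of 0.533. Ctsb, which encodes the cysteine protease cathepsin B (chromosome 14, 63122462 to 63145923, plus strand), was at 543, 536 and 569 CPM in Gls1_CamkIIaCre libraries, against 549, 570 and 553 CPM in controls. These groups overlapped too, with a log2 fold change of -0.02 ± 0.04 (SE, n = 3 each), a 95% interval of -0.10 to 0.06 and an edgeR adjusted p of 0.812. Ctsb shares 12.8% of its exonic bases with Fdft1 on the opposite strand, which had a log2 fold change of -0.12 (edgeR adjusted p of 0.245).

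Microglia markers of the resting state were measured beside the 10 genes. Of 21 homeostatic markers, all tested, 2 (9.52%) were lower, Olfml3 and Ctss, against 4.29% of all genes tested. Of these 21 markers, 0 were higher, and the median log2 fold change was -0.12. Their summed level was 697, 664 and 695 CPM in Gls1_CamkIIaCre libraries, against 784, 719 and 701 CPM in controls. None of these 21 was at 0. Taken singly, 3 of the 21 had every Gls1_CamkIIaCre library under every control library, against 13.6% of all genes tested. The sum did not overlap between the groups, though Gls1_CamkIIaCre 1 came close to control 3. Expressed as a percent of this sum, as a description without a test, Lyz2 was at 1.87, 1.55 and 1.30% in Gls1_CamkIIaCre libraries, against 2.05, 1.92 and 1.94% in controls. Lpl was at 1.77, 2.23 and 2.03% in Gls1_CamkIIaCre libraries, against 2.58, 3.52 and 2.31% in controls. These 2 were the members whose groups did not overlap on this scale. How many of all genes do so on it was not counted, and the sum itself was highest in control 1. The percentages of the other 8 overlapped, with Ctsz at 3.91, 4.43 and 4.32% in Gls1_CamkIIaCre libraries, against 4.37, 4.90 and 4.88% in controls, and Cd9 at 4.47, 4.74 and 4.14% in Gls1_CamkIIaCre libraries, against 4.53, 4.83 and 5.34% in controls.

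**Figure D3:**
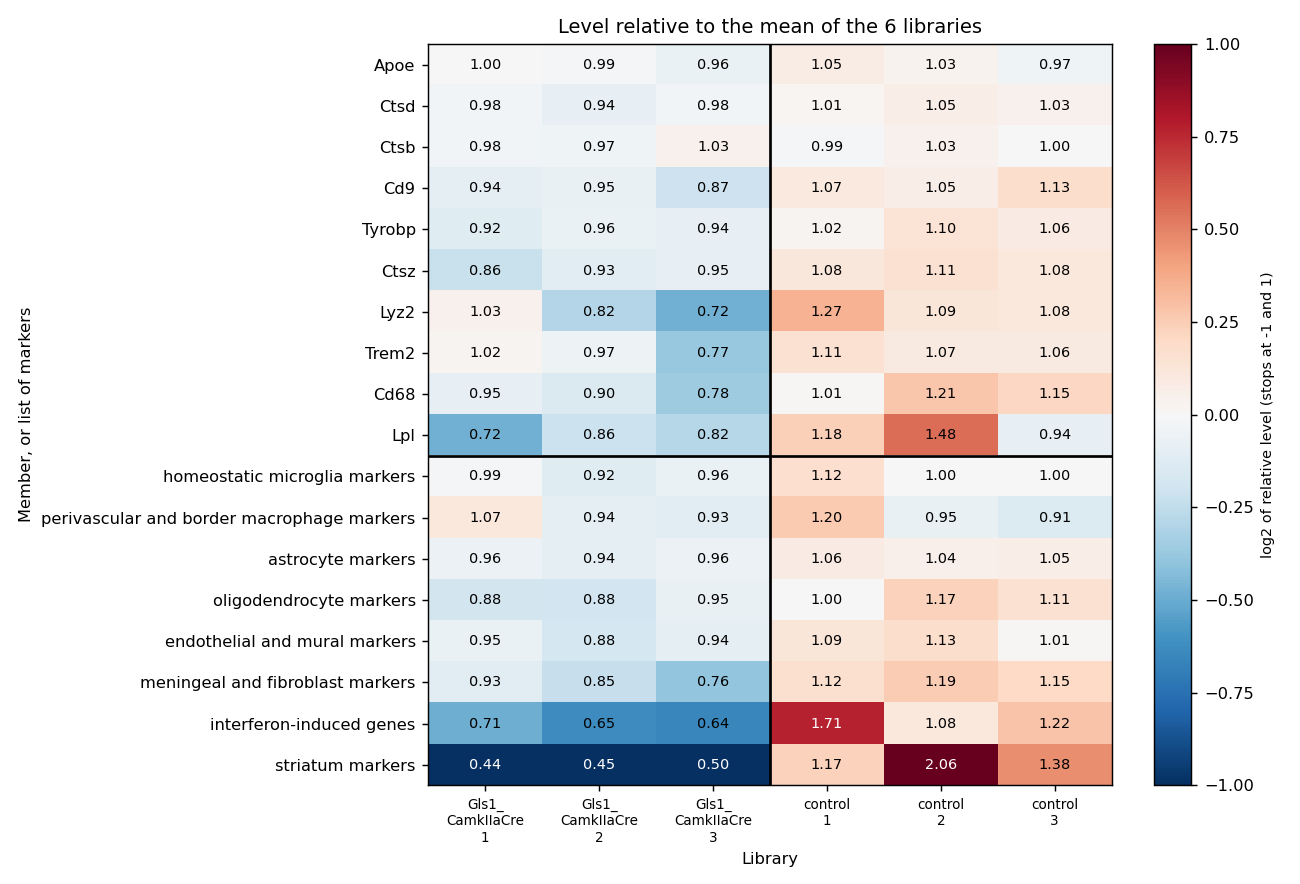
Level of each of the 10 genes, and mean level of each marker list, in every library relative to the mean of the 6 libraries (numbers in the cells, colour on a log2 scale that stops at -1 and 1). Gls1_CamkIIaCre libraries are on the left. The striatum list differs most between the groups, from 0.44 to 0.50 in Gls1_CamkIIaCre libraries against 1.17 to 2.06 in controls.

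Some markers of other cell types were also lower, and their summed levels separated the groups for the meningeal and the endothelial lists and overlapped for the oligodendrocyte, astrocyte and precursor lists. Of 18 oligodendrocyte markers, 10 were lower and 0 higher, with a summed level of 3589, 3492 and 4001 CPM in Gls1_CamkIIaCre libraries, against 3862, 4588 and 4346 CPM in controls. Of 13 meningeal and fibroblast markers, 8 were lower and 0 higher, with a summed level of 220.0, 206 and 184 CPM in Gls1_CamkIIaCre libraries, against 251, 269 and 247 CPM in controls. In the endothelial and mural list 7 of 19 were lower and 1 higher, with a summed level of 701 to 737 CPM in Gls1_CamkIIaCre libraries and 749 to 826 CPM in controls. In the astrocyte list 5 of 17 were lower and 0 higher, with a summed level of 7749 to 8062 CPM in Gls1_CamkIIaCre libraries and 7993 to 8347 CPM in controls. In the oligodendrocyte precursor list 3 of 13 were lower and 0 higher, with a summed level of 588 to 631 CPM in Gls1_CamkIIaCre libraries and 611 to 641 CPM in controls. Over all genes tested, 4.29% were called lower. None of the genes in these 5 lists was at 0, and their part in the levels of Cd9, Apoe and the other members was not tested.

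Among macrophages outside the brain tissue proper, 13 of 15 perivascular and border macrophage markers were tested, and edgeR called 0 in either direction, with 1 lower by each of DESeq2, limma voom and an unadjusted p under 0.05. The most different was Cd74, which presents antigen with major histocompatibility proteins, at 7.18, 3.84 and 5.11 CPM in Gls1_CamkIIaCre libraries, against 37.1, 14.7 and 14.7 CPM in controls (edgeR adjusted p of 0.135). Their summed level, which includes Cd74, was 77.6, 64.6 and 66.5 CPM in Gls1_CamkIIaCre libraries, against 102, 78.1 and 78.3 CPM in controls. Much of the gap in this sum came from Cd74, and the median log2 fold change of the markers tested was -0.0013. Of the 13 tested, 1 had every Gls1_CamkIIaCre library under every control library, and 3 had every one above. Over all 14440 genes tested, 1967 and 1886 did so. Blood monocyte and neutrophil markers were near absent: 4 of 17 passed the filter, 0 were called by edgeR, DESeq2 or limma voom or had an unadjusted p under 0.05, and Elane had 0 counts in every library. Their summed level was 3.18 to 6.53 CPM in Gls1_CamkIIaCre libraries and 5.44 to 6.53 CPM in controls.

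The other genes of the disease-associated state were described from a list of 26, of which 22 were tested. In this list 2 were lower (9.09%, against 4.29% over all genes tested) and 0 higher, with a median log2 fold change of -0.12. The 2 were Cd52, a small surface glycoprotein of immune cells, with a log2 fold change of -1.20 ± 0.33 (edgeR adjusted p of 0.0284), and the lysosomal enzyme gene Gusb, with -0.38 ± 0.11 (edgeR adjusted p of 0.0313, SE, n = 3 each). Cd52 was at 1.23, 1.23 and 0.579 CPM in Gls1_CamkIIaCre libraries, against 3.01, 2.52 and 1.45 CPM in controls. The levels did not overlap but were near the bottom of the measured range.

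Of 30 genes around Trem2 and Tyrobp signalling, 26 were tested, 1 was lower and 0 were higher, with a median log2 fold change of -0.08. The share lower was 3.85%, against 4.29% over all genes tested. The gene that passed was Irf8, a transcription factor that microglia need. It was at 3.64, 3.73 and 3.95 CPM in Gls1_CamkIIaCre libraries, against 8.93, 5.76 and 5.87 CPM in controls, with a log2 fold change of -0.86 ± 0.18 (SE, n = 3 each) and an edgeR adjusted p of 0.00511. The kinase, phosphatase and adaptor genes of the list that were tested did not pass. The adaptor gene Hcst, at 1 to 12 counts per library, was not tested.

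Of 15 further cathepsins and cathepsin inhibitors, 11 were tested, 3 were lower and 0 were higher, with a median log2 fold change of -0.07. The share lower was 27.3%, against 4.29% over all genes tested. Cst3, the secreted inhibitor cystatin C, was at 742, 681 and 720 CPM in Gls1_CamkIIaCre libraries, against 855, 829 and 817 CPM in controls, with a log2 fold change of -0.22 ± 0.04 (SE, n = 3 each) and an edgeR adjusted p of 0.00184. The microglial protease gene Ctss, which is also in the homeostatic list, had -0.28 ± 0.07 (edgeR adjusted p of 0.0263). The aminopeptidase gene Ctsh had -0.35 ± 0.10 (edgeR adjusted p of 0.0332).

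Of 40 lysosomal hydrolases and membrane proteins, 4 were lower and 0 higher, against 4.29% lower over all genes tested, with a median log2 fold change of -0.04. They were Npc2, which hands cholesterol out of the lysosome, at -0.27 ± 0.06, the hexosaminidase subunit gene Hexa at -0.25 ± 0.06, the mannosidase gene Man2b1 at -0.27 ± 0.07, and Gusb. In the lysosome pathway of the deposited KEGG annotation, which holds 4 of the 10 members, 110 of 123 genes were tested, 10 were lower (9.09%) and 1 was higher, with a median of -0.01.

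For lipid handling, 30 of 32 genes were tested, 1 was lower and 0 were higher by edgeR, with a median log2 fold change of -0.03. The share lower was 3.33%, against 4.29% over all genes tested. The gene that passed was Pltp, the phospholipid transfer protein, at 42.6, 43.7 and 37.7 CPM in Gls1_CamkIIaCre libraries, against 58.6, 52.1 and 59.9 CPM in controls (log2 fold change of -0.46 ± 0.07, edgeR adjusted p of 0.000368). Among 24 tetraspanins and partners of Cd9, 23 were tested, 1 was lower and 0 were higher, with a median of -0.11. Here the share lower was 4.35%, against the same 4.29%. The gene called was the tetraspanin Cd151, with a log2 fold change of -0.29 ± 0.08 (edgeR adjusted p of 0.0366).

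Where 0 genes of these lists were called higher by edgeR, an unadjusted p under 0.05 with a higher level was found for 2 genes of the disease-associated list, 1 of the hydrolases, 2 of the lipid genes and 1 of the astrocyte markers, and for 0 of the others. DESeq2 called 1 lipid gene higher and limma voom called 0. Leaving out each library in turn gave between 0 and 3 lower calls in the disease-associated list, 1 and 3 among cathepsins, 1 and 4 among hydrolases, 1 and 2 in the lipid list, 0 and 2 among tetraspanins, and 1 and 2 in the homeostatic list. The same gave between 4 and 13 lower calls among oligodendrocyte markers, 3 and 9 among meningeal and fibroblast markers, 2 and 8 among endothelial and mural markers, 1 and 5 among astrocyte markers, 6 and 15 among striatum markers, 9 and 16 among interferon-induced genes and 1 and 9 in the KEGG lysosome pathway.

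**Figure D4:**
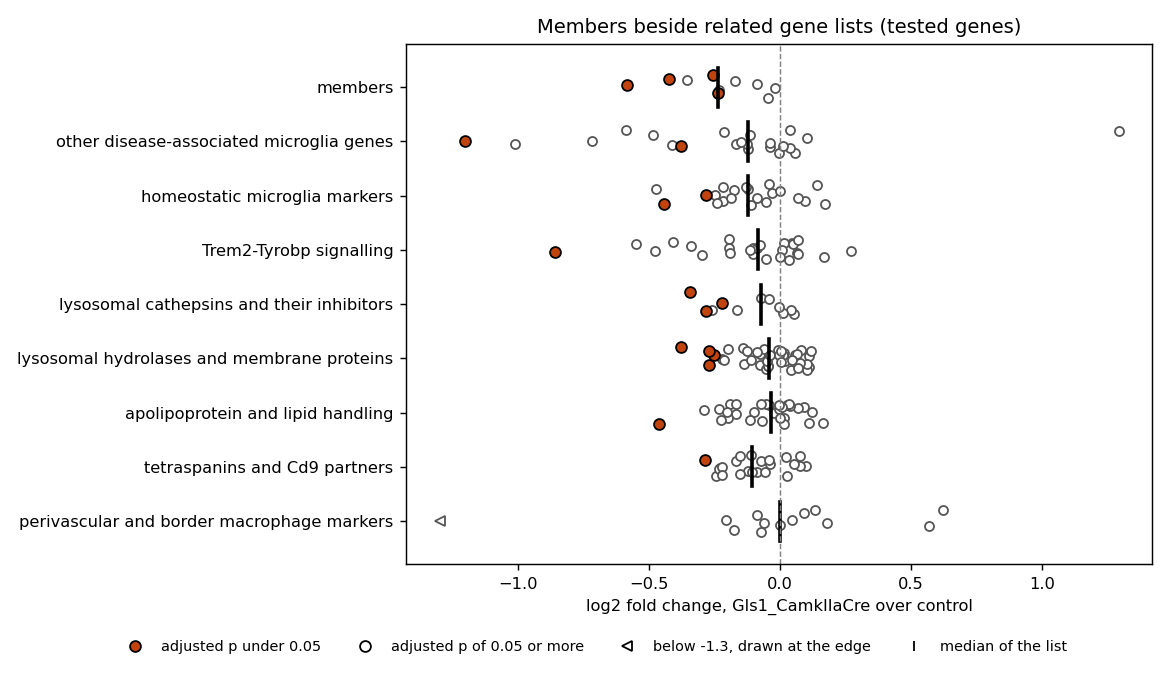
Fitted log2 fold change (Gls1_CamkIIaCre over control) of every tested gene in the 10-gene set and in 8 related lists. Filled points have an edgeR adjusted p under 0.05, black lines are medians, and the triangle is Cd74 at -2.04, drawn at the edge. The medians run from -0.24 for the 10 genes to -0.0013 for the perivascular and border macrophage markers.

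Across alternative analyses, each of Ctsz, Cd9, Lyz2, Lpl, Cd68, Trem2, Tyrobp, Ctsd and Apoe kept a log2 fold change below 0 in all 17 refits. Ctsb was above 0 with the striatum covariate, at 0.05, and below 0 in the other refits. Ctsz passed the threshold in 14 of 19 settings (these refits and other thresholds), Cd9 and Lpl in 10 each and Lyz2 in 9.

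**Figure D5:**
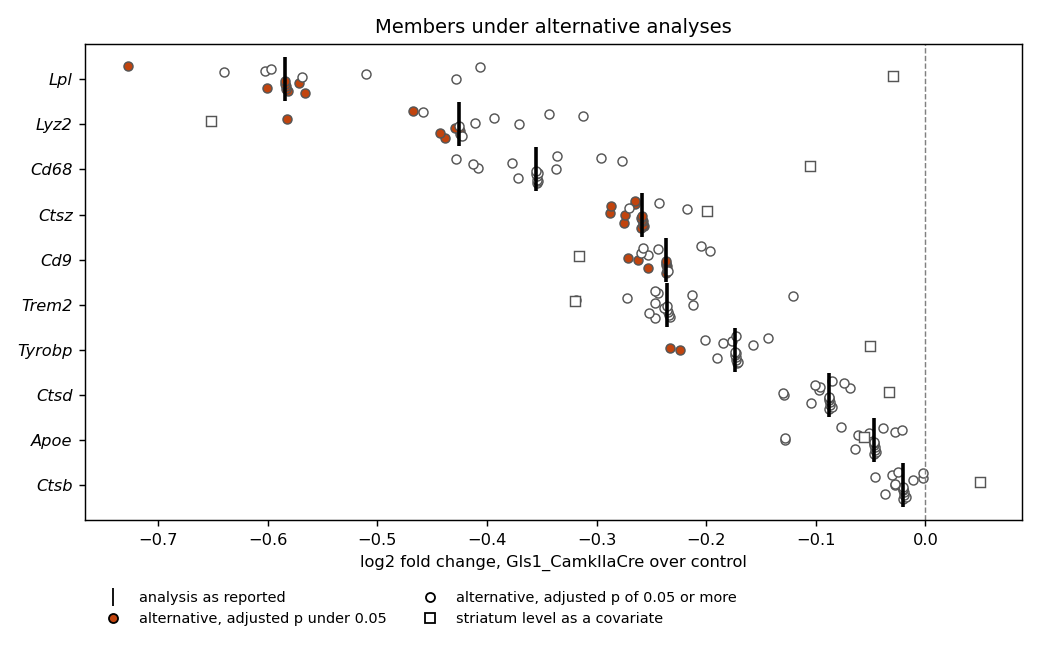
Log2 fold change (Gls1_CamkIIaCre over control) of each of the 10 genes in the analysis as reported (black lines) and under 17 alternative fits (circles, and squares for the fit with the striatum covariate). Filled symbols have an adjusted p under 0.05. With the covariate Lpl lies at -0.03 and Ctsb at 0.05.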

How the data were processed

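Whole prefrontal cortex of 3 Gls1_CamkIIaCre and 3 control mice was sequenced. RNA was isolated with TRIzol, and per the labels' protocols SMARTer mRNA-Seq libraries were prepared from it. Gene-level whole-number counts were deposited, together with FPKM values that the authors computed for the same genes. Reads were placed on GRCm38 (mm10), according to the submitters' processing notes. Not given in the sources used here are the aligner, the counter, its use of strand and the tool behind the FPKM values.

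Counts were fitted whole with edgeR 4.0.16 (R 4.3.3): filterByExpr, TMM factors, the robust quasi-likelihood test and no covariate. Levels are TMM-normalised CPM, and calls were made at an adjusted p (Benjamini-Hochberg, all genes tested) under 0.05. Alternatives used DESeq2 1.42.0, limma 3.58.1 (voom, or log2 of the deposited FPKM plus 1 or 0.1), other scalings, filters and thresholds, a replicate block, a covariate for the striatum level, and each library left out. The test was also run on simulated counts: fold changes were unbiased, but false calls exceeded the nominal share when genes were given their own dispersions, so adjusted p just under 0.05 should be read with care. Within groups, libraries differed by more than sampling noise (chi-square per degree of freedom of 2.25 to 4.05).

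The members and lists were chosen with earlier results of these data known. All 10 members are named, and of each list described in detail every called gene where these are 6 or fewer, or at most 2 of smallest p where none is called. The KEGG lysosome list was taken from the deposited annotation after it was read. Genes called in the lists of other cell types, the striatum and interferon are not named. Exonic overlaps are from GENCODE M21 (GRCm38), and coordinates and promoters from RefSeq (GRCm38.p6), which matched 21727 of 21878 rows. The level of the targeted gene is not reported here.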

Additional observations from a re-analysis of the deposited data

How the results depend on the processing

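The members called (4 lower) numbered 2 with DESeq2 (Ctsz and Lpl), 0 with the striatum covariate and 0 at an adjusted p under 0.01, and between 0 and 3 when each library was left out. They numbered 0 without Gls1_CamkIIaCre 2 or control 2, 1 without Gls1_CamkIIaCre 1, Gls1_CamkIIaCre 3 or control 1, and 3 without control 3. Lyz2 and Lpl did not pass on log2(FPKM + 1) or log2(FPKM + 0.1), and Tyrobp did. Over all genes, the 1190 calls became 674 on log2(FPKM + 1), 729 on log2(FPKM + 0.1), 43 with the striatum covariate, 1862 at an adjusted p under 0.1 and 402 under 0.01, and 415 to 1098 with a library left out. The split of 571 higher and 619 lower became 429 and 749 with upper-quartile factors, 116 and 558 on log2(FPKM + 1), and 122 and 607 on log2(FPKM + 0.1). Ctsb reversed to a log2 fold change of 0.050 with the striatum covariate (edgeR adjusted p of 0.936), which is nearly collinear with genotype, and the cause was not tested. Whether replicate numbers pair the samples was not settled. Same-numbered libraries deviated from their group means with r of 0.15, -0.04 and 0.18. Differently numbered pairs had r from -0.21 to 0.07, and not every library correlated best with its own number. A replicate block gave 4 members and 1758 of all genes, and moved the other disease-associated list to 7 lower and 1 higher, the lipid list to 4 lower and 2 higher, the tetraspanins to 3 lower and the homeostatic list to 4 lower. With 3 mice a group and counts as low as 115, members of low level such as Trem2 and Cd68 have wide intervals, and a p that misses the threshold does not show that their levels were equal.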
